A study of Mus musculus with 6 samples.

Results

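The IGKV4 genes are a family of kappa light chain variable genes, and IGKV4-59 among them carries the light chain that dominates the B cells of the 564Igi mouse. Its members were the genes whose name starts with IGKV4- in kappa chains of splenic B cells, and 25 of the 96 IGKV genes found met that rule. Of these, 15 were seen in the 564Igi mouse and 25 in the WT mouse. An IGKV4 chain was held by 3516 of 3599 564Igi and by 933 of 5994 WT B cells with a kappa chain. The data are single-cell V(D)J contigs, assembled receptor transcripts with counts of unique molecular identifiers (UMIs), from the spleen of 1 heterozygous 564Igi mouse and 1 wild-type C57BL/6JRj mouse (WT). The 564Igi strain carries the alleles Ightm1(Igh564)Tik and Igktm1(Igk564)Tik on a B6.129S4(Cg) background. With them, rearranged heavy and kappa chain genes of an autoreactive antibody are targeted into the immunoglobulin loci, and the animal studied is heterozygous, so that it also carries germline loci. Splenocytes had been depleted of Ter-119-positive erythroid cells. Ages were not given in the labels. Each group was 1 mouse, so no difference between the mice was tested, and the 95% intervals, exact binomial ones for shares and Newcombe ones for differences in percentage points, cover counting error only.

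A kappa chain is made by joining a V gene to one of the J segments at the end of the locus, and the join forms the third complementarity-determining region (CDR3), the most variable loop that touches antigen. A cell whose receptor binds self can rearrange the kappa locus again, a process called receptor editing, which uses V genes further upstream and J segments further downstream, up to IGKJ5. After contact with antigen, activated B cells can mutate their V genes and switch the heavy chain constant gene away from IGHM and IGHD, and cells that secrete antibody carry very large amounts of receptor mRNA.

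The light chain found most often in 564Igi was made of IGKV4-59 and IGKJ5, and its CDR3 read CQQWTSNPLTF. It is called the candidate, since no label states which sequence was knocked in. The CDR3 bases are shown because 1 base sets the candidate apart from a chain that WT cells make. Capitals mark, in the candidate, the base that differs from the closest WT chain, and in both WT chains the bases that differ from the candidate.

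candidate, 564Igi: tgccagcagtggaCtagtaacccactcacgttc
closest IGKV4-59 IGKJ5 chain, WT: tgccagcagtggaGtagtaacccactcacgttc
most frequent IGKV4-59 IGKJ5 chain, WT: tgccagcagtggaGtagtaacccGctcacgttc

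Bases are counted from 1 at the 5′ end of the CDR3 and amino acids from 1 at its first cysteine. The candidate carried G14C relative to the closest WT chain, which reads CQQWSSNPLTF, so that the WT chain has T5S relative to the candidate. The closest WT chain was found in 10 WT cells under IGKV4-59 and in 27 under any V gene name. The most frequent one was found in 30 WT cells under IGKV4-59 and in 62 under any V gene name, and carried C14G and A24G relative to the candidate. No WT contig of any kind held the candidate CDR3, whereas 6984 564Igi contigs did.

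Gene names within the family rest on few bases. IGKV4-59, IGKV4-68, IGKV4-71 and IGKV4-72 share the usual first 7 codons of the CDR3, tgccagcagtggagtagtaac, and in WT 28 of 201 distinct CDR3 sequences occurred under 2 or more IGKV4 names, in 332 cells. In 564Igi the candidate CDR3 itself was named with 15 other IGKV4 genes in 33 contigs. Of these, 3 passed all filters in B cells, 1 each under IGKV4-55, IGKV4-72 and IGKV4-74, with 16, 31 and 37 UMIs. They stay under the deposited name below, and values without them are given where they matter. On the GRCm38.p6 assembly the V segment of IGKV4-59 lies on chromosome 6 from 69438218 to 69438741, 1284 kb from Igkj1. The family spreads over 946 kb of the same chromosome, from IGKV4-92 at 68755038 to the end of IGKV4-50 at 69701287, interspersed with genes of other families. RefSeq lists 28 IGKV4 V segments, and IGKV4-60, IGKV4-73 and IGKV4-92 were found in neither mouse. In WT, 0 of 5994 cells allows a share of up to 0.0501% (3 cells).

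The first comparison asked how often the family was used. The candidate was held by 3459 of 3599 564Igi cells, or 96.1% (95.4 to 96.7). The same filter found it in 37 of 4573 564Igi barcodes that were T cells alone, or 0.809% (0.570 to 1.11). Its median was 2 UMIs there and 17 in 564Igi B cells. Another kappa chain, alone or beside the candidate, was held by 292 564Igi cells, and shares of all other 564Igi chains are of these 292. The family as a whole was held by 58 of them, or 19.9% (15.4 to 24.9), and by 15.6% of WT cells (14.7 to 16.5). The difference of 4.30 points had an interval of -0.223 to 9.42, so the interval just included 0. Under 7 of 9 other settings the interval left out 0, from 0.0375 to 9.71 with chains of 1 UMI kept to 19.0 to 38.5 in cells with exactly 1 kappa chain, no lambda chain and 1 heavy chain. With near copies of the candidate left out the difference was -1.75 points (-5.63 to 2.93), and with each distinct chain counted once it was -2.12 points (-8.28 to 4.82). A further setting, added after seeing the data, left out the 3 chains with the candidate CDR3 under another name. There the difference was 3.47 points (-0.996 to 8.56), which includes 0.

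The members behind this total differed. IGKV4-59 with another CDR3 was held by 29 of the 292 564Igi cells, or 9.93% (6.75 to 14.0), and IGKV4-59 by 130 WT cells, or 2.17% (1.82 to 2.57). The difference was 7.76 points (4.56 to 11.8). Most of it was held by chains within a few bases of the candidate, which are described further on. Without IGKV4-59 IGKJ5 chains of up to 2 mismatches to the candidate, in both mice, IGKV4-59 was held by 2.22% of 564Igi and 1.23% of WT cells, a difference of 0.996 points (-0.441 to 3.56). The other IGKV4 genes were held by 29 of 292 564Igi cells, or 9.93% (6.75 to 14.0), and by 13.4% of WT cells (12.5 to 14.3), a difference of -3.47 points (-6.77 to 0.644).

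Among the 17 IGKV4 genes with at least 20 WT cells, 3 were at least 2-fold higher and 3 at least 2-fold lower in 564Igi. Over all 70 IGKV genes with at least 20 WT cells, 5.71% were at least 2-fold higher and 20% at least 2-fold lower. By this rule the lower share of the family was close to that of all genes. However, genes at 0 in 564Igi were set to 3 cells, and none of the 10 such genes could then be called lower. Among them were 4 members, IGKV4-57, IGKV4-58, IGKV4-61 and IGKV4-80. The higher members were IGKV4-59 at 4.58-fold, IGKV4-79 at 2.05-fold with 2 564Igi cells, and IGKV4-57-1 at 2-fold with 4. Those 2 genes rest on so few cells that their intervals in 564Igi include the WT share. The lower members were IGKV4-72 at 0.432-fold, IGKV4-74 at 0.387-fold and IGKV4-91 at 0.387-fold. IGKV4-72 and IGKV4-74 each count 1 564Igi cell with the candidate CDR3, which was the only 564Igi cell of IGKV4-74. The median fold was 0.933 for the 17 members and 0.838 for all 70 genes. Setting genes at 0 to 3 cells can only raise these medians, so they are upper limits and are not compared.

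**Figure D1:**
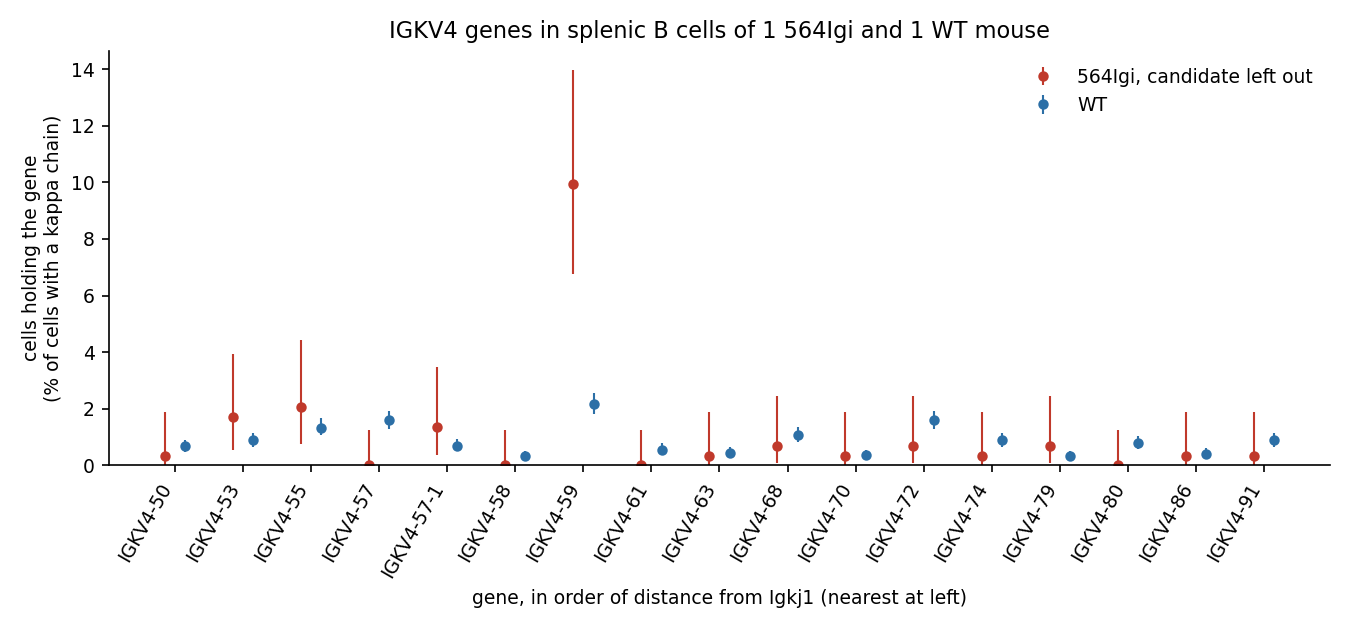
Share of cells holding each IGKV4 gene with at least 20 WT cells (y axis, percent of 292 564Igi cells with a kappa chain other than the candidate, and of 5994 WT cells with a kappa chain), ordered by distance from Igkj1 on the x axis. Points are 1 mouse each and bars are exact 95% intervals. Only IGKV4-59 has a 564Igi interval (6.75 to 14.0) that lies above its WT interval (1.82 to 2.57).

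IGKV4-59 was the most used member in both mice, but 25 of its 29 564Igi cells held chains close to the candidate, described further on. IGKV4-55 followed in 564Igi, with 6 cells (2.05%), 1 of them with the candidate CDR3, against 80 WT cells (1.33%). IGKV4-53 was held by 5 564Igi cells (1.71%) and 53 WT cells (0.884%). IGKV4-57-1 was held by 4 564Igi cells (1.37%) and 41 WT cells (0.684%). These 3 genes, which lie 1073 to 1178 kb from Igkj1, were the only other members with more than 2 564Igi cells. IGKV4-57 and IGKV4-72 followed IGKV4-59 in WT, each with 95 cells (1.58%). IGKV4-57 was not found among the 292 564Igi cells, where 3 cells would be 1.03%, and IGKV4-72 was held by 2 (0.685%). IGKV4-68 was held by 2 564Igi cells (0.685%) and 64 WT cells (1.07%). For IGKV4-68 and IGKV4-72 the intervals of the mice overlapped, so a difference was not detectable at this depth. For IGKV4-57 the exact 564Igi interval, 0 to 1.26, ended just below the WT interval (1.28 to 1.93).

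The remaining named genes were low in both mice. IGKV4-74 and IGKV4-91 were each held by 1 564Igi cell (0.342%) and by 53 WT cells (0.884%). IGKV4-80 was held by 0 564Igi and 47 WT cells (0.784%), and IGKV4-61 by 0 564Igi and 33 WT cells (0.551%). IGKV4-50 was held by 1 564Igi cell and 40 WT cells (0.667%). All of these intervals overlapped between the mice. IGKV4-63, IGKV4-86 and IGKV4-70 were held by 1 564Igi cell each and by 26, 25 and 22 WT cells. IGKV4-58 was held by 0 564Igi and 20 WT cells, and IGKV4-79 by 2 564Igi and 20 WT cells. The last 8 genes had 1 to 15 WT cells, and of these only IGKV4-69 and IGKV4-90 were found in 564Igi, in 1 cell each. Usage did not follow position closely: over the 17 genes, the WT share and the distance from Igkj1 had a Pearson r of -0.224 and a Spearman rho of -0.207, as a description of genes of 1 mouse.

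The second comparison concerned the J segment. In WT, IGKV4 chains used the most downstream segment more often than the other families did when these were pooled. IGKJ5 was joined to 341 of 938 IGKV4 chains, or 36.4% (33.3 to 39.5), and to 23.9% of 6018 chains of other families (22.9 to 25), a difference of 12.4 points (9.15 to 15.8). Single families ran from 7.05% for IGKV10 to 50.2% for IGKV8, and IGKV17 (38.4%) and IGKV5 (37.5%) also lay above IGKV4. IGKJ1 made up 15.5% of IGKV4 chains and 32.4% of other chains, a difference of -16.9 points (-19.5 to -14.2). IGKJ2 made up 27.1% of IGKV4 and 30.6% of other chains, and IGKJ4 21.1% of IGKV4 and 13% of other chains. The members differed widely among themselves. IGKJ5 made up 62.5% of IGKV4-55 chains (51.0 to 73.1), 52% for IGKV4-86 (31.3 to 72.2), 50% for IGKV4-68 (37.2 to 62.8) and 46.9% for IGKV4-59 (38.1 to 55.9). At the other end it made up 15.1% for IGKV4-74 (6.75 to 27.6), 4.55% for IGKV4-70 (0.115 to 22.8), 4.26% for IGKV4-80 (0.520 to 14.5) and 0 of 20 chains for IGKV4-79 (exact interval to 16.8). Between these lay IGKV4-57-1 (46.3%), IGKV4-72 (40%), IGKV4-63 (38.5%), IGKV4-53 (37.0%), IGKV4-61 (36.4%), IGKV4-57 (35.4%), IGKV4-58 (30%), IGKV4-50 (25%) and IGKV4-91 (24.5%). Neighbours in this order had overlapping intervals, whereas the first 4 genes lay above the last 4 beyond their intervals. IGKV4-80, IGKV4-61, IGKV4-70 and IGKV4-50 joined IGKJ1 in 48.9%, 42.4%, 40.9% and 30% of chains, and the other 13 members in 26.4% or less.

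Of the other 48 IGKV genes with at least 50 WT cells, IGKV4-68 had the J usage closest to that of IGKV4-59, at a total variation distance (the summed share that would have to be moved between J segments) of 7.60 points. IGKV4-72 followed at 9.88 points and IGKV6-23 at 10.3 points. IGKV4-68 and IGKV4-72 also share the usual CDR3 start of IGKV4-59, as does IGKV4-71, which has too few WT cells to be compared here. By IGKJ5 share, IGKV4-59 ranked 5 of all 49 such genes.

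In 564Igi, IGKJ5 was more frequent still. Leaving the candidate out, 44 of 58 cells had it, or 75.9% (62.8 to 86.1), against 36.5% of WT IGKV4 cells (33.5 to 39.7), a difference of 39.3 points (25.9 to 50). Of the 29 IGKV4-59 chains other than the candidate, 26 used IGKJ5 (89.7%, 72.6 to 97.8), and these are mostly near copies of a chain that has IGKJ5. Of the 29 chains of other IGKV4 genes, 18 used IGKJ5 (62.1%, 42.3 to 79.3), against 34.7% in WT (31.4 to 38.0), a difference of 27.4 points (7.32 to 45.0). Without the 3 chains that hold the candidate CDR3 under another name, it was 15 of 26 (57.7%, 36.9 to 76.6), a difference of 23.0 points (1.99 to 42.3). In the other families IGKJ5 made up 30.3% of 238 564Igi chains (24.5 to 36.5) and 23.9% of WT chains. Which members were used also differed between the mice and was not held fixed in these shares.

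**Figure D2:**
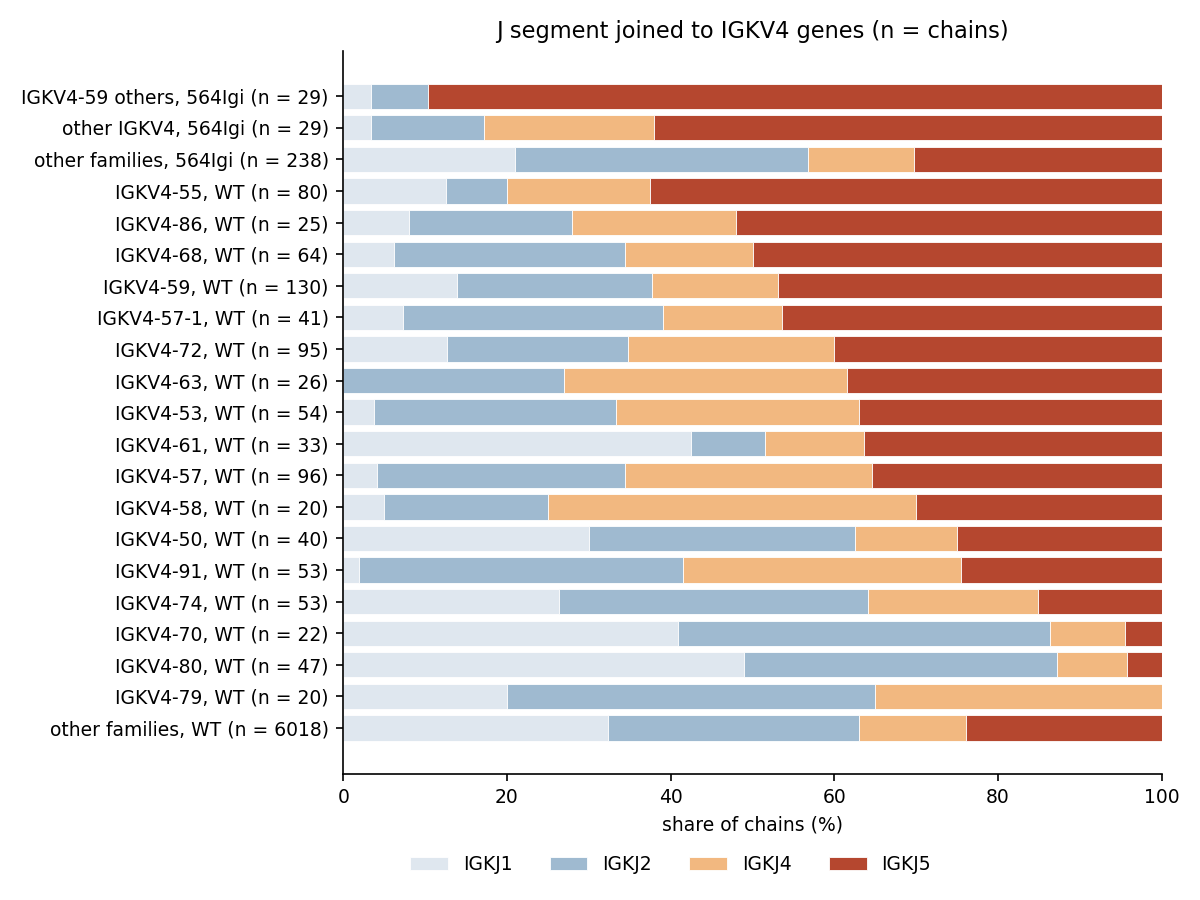
J segments joined to IGKV4 chains, as stacked shares in percent on the x axis, for the 564Igi chains other than the candidate (upper bars) and for WT members in order of their IGKJ5 share (lower bars), with chains of other families beside them. IGKJ5 makes up 89.7% of the 564Igi IGKV4-59 chains and 62.1% of the other 564Igi IGKV4 chains, and in WT from 62.5% for IGKV4-55 to 0 for IGKV4-79.

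The CDR3 of the family was nearly uniform in length. Without the first cysteine and the last phenylalanine it had 9 amino acids in 53 of 58 564Igi cells, or 91.4% (81.0 to 97.1), and in 818 of 933 WT cells, or 87.7% (85.4 to 89.7). The candidate has the same length. WT members that departed from it were IGKV4-80, IGKV4-70 and IGKV4-86. IGKV4-80 had 9 amino acids in 38.3% of chains, with 25 chains of 8 and 4 of 7. IGKV4-70 had 9 in 63.6%, with 4 chains each of 8 and 7, and IGKV4-86 had 9 in 68.0%, with 7 chains of 8. The other members with at least 20 WT cells had 9 amino acids in 82.1% of chains or more, up to 100% for IGKV4-63. In WT IGKV4-59 chains the residue at position 9, where V and J meet, was proline in the most frequent CDR3, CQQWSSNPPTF (46 cells), and leucine in the second, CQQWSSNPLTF (40 cells). All 40 chains with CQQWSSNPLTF used IGKJ5, whereas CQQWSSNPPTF was joined to IGKJ5 in 20 cells, IGKJ2 in 15, IGKJ1 in 6 and IGKJ4 in 5.

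Identical light chains recurred across cells, in WT nearly always with different heavy chains. A chain was counted as repeated when V gene, J gene and CDR3 bases were found in at least 2 cells of the mouse. Repeated chains were held by 25 of 58 564Igi cells, the candidate left out, or 43.1% (30.2 to 56.8), and by 805 of 933 WT cells, or 86.3% (83.9 to 88.4). The number of cells differs between the mice and sets how often a chain can be seen again, so these shares are not compared. In WT, 146 of 277 distinct chains were repeated. Their 636 cells with a heavy chain held 635 distinct heavy CDR3 sequences. In 145 of the 146 chains no heavy chain was seen again. Some of these 145 had fewer than 2 cells with a heavy chain and could not show a repeat. The 9 repeated chains of 564Igi had 18 distinct heavy CDR3 sequences in 23 cells. Chains found in both mice were 19 of 42 distinct 564Igi chains, in 22 cells, and 19 of 277 WT chains, in 153 cells.

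The most frequent WT chain joined IGKV4-59 to IGKJ5 (30 cells) and was also found in 1 564Igi cell. The next were IGKV4-57 with IGKJ4 and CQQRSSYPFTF (26 WT cells, 0 in 564Igi) and IGKV4-55 with IGKJ5 and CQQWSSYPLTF (2 564Igi and 25 WT cells). IGKV4-72 with IGKJ5 and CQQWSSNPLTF (18 WT cells) has the same CDR3 bases as the first, and IGKV4-59 with IGKJ5 and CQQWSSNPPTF was held by 17. Each of these 5 chains had as many distinct heavy CDR3 sequences as cells with a heavy chain, from 12 to 22. In 564Igi the most frequent chain after the candidate was an IGKV4-59 IGKJ5 chain with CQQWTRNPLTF, held by 7 cells and by no WT cell, with 2 heavy CDR3 sequences among 6 cells. IGKV4-53 with IGKJ5 and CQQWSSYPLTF was held by 3 564Igi and 8 WT cells, with a different heavy chain in each of the 3. IGKV4-57-1 with IGKJ5 and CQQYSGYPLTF (1 564Igi and 11 WT cells) and IGKV4-53 with IGKJ4 and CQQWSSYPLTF (1 564Igi and 10 WT cells) were also found in both mice.

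The IGKV4-59 chains of 564Igi that were not the candidate were mostly altered copies of it. The group was defined after the values had been seen, as IGKV4-59 IGKJ5 chains of the same length with 1 to 3 mismatches to the candidate and CDR3 bases not found in WT. It held 25 of the 29 cells, 0.717% of all 3488 564Igi cells with IGKV4-59 (0.464 to 1.06). The 25 cells carried 13 distinct sequences. All 13 changed the amino acids, which the definition fixed in advance, since the candidate was set by its amino acids. Of these, 1 reads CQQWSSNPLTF, which WT cells make from other bases. Another 3 sequences in 4 cells differed from the candidate in bases alone and were counted with it. The copies found in 2 or more cells, and the copy that shares its heavy chain with one of them, are shown with the bases that differ from the candidate in capitals.

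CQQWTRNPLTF: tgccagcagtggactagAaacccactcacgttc
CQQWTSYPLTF: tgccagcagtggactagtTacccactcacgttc
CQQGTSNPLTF: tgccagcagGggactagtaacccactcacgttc
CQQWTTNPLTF: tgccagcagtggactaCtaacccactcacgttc
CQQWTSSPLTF: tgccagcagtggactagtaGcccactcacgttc
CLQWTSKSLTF: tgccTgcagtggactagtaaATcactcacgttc
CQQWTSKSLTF: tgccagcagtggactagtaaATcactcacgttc

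All changes of the 13 altered copies fell in codons 2 to 8 of the CDR3. Codon 6, a serine in the candidate, was changed in 4 distinct copies and 11 cells, and codon 7, an asparagine, in 5 copies and 9 cells. Codon 1 and codons 9 to 11, the IGKJ5 end of the CDR3, were unchanged in all 13 copies. The definition fixed this in part, since it required IGKJ5 and counted copies that differ in bases alone with the candidate. Of the latter, 1 carried C3T, in codon 1. The copies carried S6R in 7 cells, N7Y in 3, and W4G, S6T and N7S in 2 each. The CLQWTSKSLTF copy carried N7K and P8S together with Q2L, and the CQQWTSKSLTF copy N7K and P8S alone.

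Over the first 7 codons alone, 29 of 3485 564Igi IGKV4-59 IGKJ5 chains had 1 to 3 mismatches to the candidate, or 0.832% (0.558 to 1.19). These are most of the altered copies themselves, the copies that differ in bases alone, and the cell with the most frequent WT chain. They are thus no separate background for the altered copies. In WT, 0 of 130 IGKV4-59 chains departed from the usual first 7 codons by 1 to 3 bases (exact interval to 2.80), so a difference between the mice was not detectable at this depth. Over the 17 WT members with at least 20 cells it was 28 of 899 chains (3.11%, 2.08 to 4.47), which includes chains with the usual start of a neighbouring gene. The 4 remaining 564Igi cells held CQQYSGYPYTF with IGKJ2 (2 cells, with the usual start of IGKV4-57-1), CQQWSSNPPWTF with IGKJ1, and the most frequent WT chain.

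The altered copies were found with heavy chains close to the candidate heavy chain, IGHV1-53 with IGHJ4 and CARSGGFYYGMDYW, the most frequent heavy chain of 564Igi. Of 23 cells with a heavy chain, 5 had it unchanged and 10 a near copy, defined as a heavy CDR3 of the same length within 5 mismatches. In cells with the exact candidate light chain, 1660 of 3156 had the candidate heavy chain (52.6%) and 30 a near copy (0.951%). Among cells with a named constant gene, 6 of 23 with an altered copy were switched, or 26.1% (10.2 to 48.4), and 23 of 3082 with the exact candidate, or 0.746% (0.474 to 1.12). The difference was 25.3 points (9.48 to 47.7). Cells that share both chains may be 1 clone: counting each heavy CDR3 once, 4 of 17 were switched with an altered copy (23.5%, 6.81 to 49.9) and 18 of 1410 with the candidate (1.28%, 0.758 to 2.01). In the same mouse, 1 of 24 cells with another IGKV4 gene was switched, and 4 of 200 with another family (2%). In WT, 0 of 94 IGKV4-59 cells was switched, which allows up to 3.19%, and 1 of 693 IGKV4 cells (0.144%, 0.00365 to 0.801) against 24 of 3666 cells of other families (0.655%, 0.420 to 0.973).

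Several altered copies formed small sets. The 3 cells with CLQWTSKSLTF or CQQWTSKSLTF all had IGHV1-53 with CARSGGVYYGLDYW and IGHG2C. Their light chains had 1594, 9 and 9087 UMIs and their heavy chains 1290, 2 and 4355. The 7 cells with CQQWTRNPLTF had 7982, 7584 and 6893 light chain UMIs in 3 of them and 35, 22, 13 and 7 in the others. All 6 with a heavy chain had IGHM, 5 with the candidate heavy CDR3 and 1 with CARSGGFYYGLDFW. The 3 cells with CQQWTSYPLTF had IGHV1-12 with IGHJ4 and 3 heavy CDR3 sequences of 15 amino acids, 1 to 2 residues apart. One of them had IGHG1 and 2 had IGHM, with 16 to 49 light chain UMIs. Whether cells with few UMIs hold RNA from the cells with the same chain and far more UMIs was not tested. Leaving out those under 1% of the UMIs of the largest cell with the same CDR3 kept 20 cells, of which 5 of 19 were switched (26.3%, 9.15 to 51.2).

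**Figure D3:**
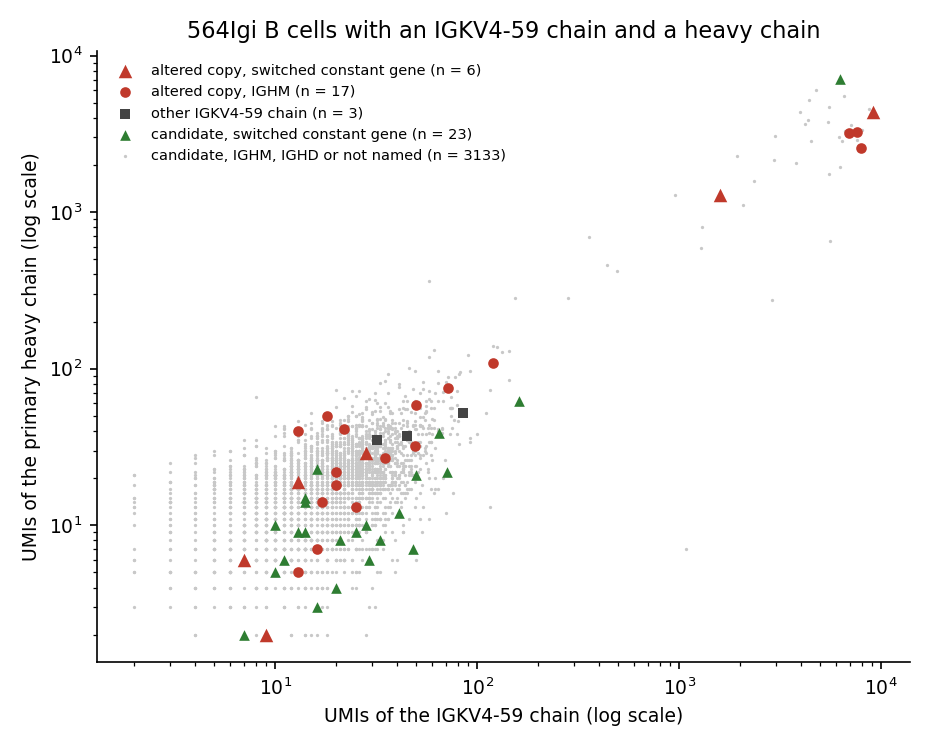
UMIs of the IGKV4-59 chain (x axis, log scale) and of the primary heavy chain (y axis, log scale) in 564Igi cells that hold both. Points are cells, by whether the light chain is an altered copy, the candidate or another chain and by whether the constant gene is switched. The 6 switched cells with an altered copy have 7 to 9087 light chain UMIs, and the 5 altered copies with at least 1000 UMIs lie at the upper right.

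A further comparison concerned how many transcripts each chain gave. IGKV4 chains had low UMI counts in both mice. The candidate had a median of 17 UMIs (quartiles 11 and 26), the other 564Igi IGKV4 chains 22 (16 and 43.2) and chains of other families in 564Igi 46.5 (29 and 63.8). In WT the medians were 20 (14 and 27) for IGKV4 and 42 (26 and 61) for other families. The candidate thus had counts like those of WT IGKV4-59, at 20 (16 and 27), at the depth of its own library. In cells with exactly 1 kappa chain the medians were 22.5 for 56 IGKV4 cells and 50.5 for 82 cells of other families in 564Igi, and 20 for 690 IGKV4 cells and 43 for 4448 cells of other families in WT. Of the 16 families with at least 50 such WT cells, IGKV4 had the lowest median, below IGKV16 at 23.5 and IGKV13 at 24, and the other families reached 61. Heavy chains were not lower with IGKV4. Over all cells with a heavy chain, their median was 14 UMIs with IGKV4 and 14 with other families in WT. In 564Igi it was 18 with the candidate, 20.5 with other IGKV4 chains and 15 with other families. In cells with exactly 1 kappa chain, the ratio of kappa to heavy UMIs had a median of 1 with the candidate. It was 1.33 in other 564Igi IGKV4 cells and 4 in 564Igi cells of other families. In WT it was 1.54 in IGKV4 cells and 3.38 in cells of other families.

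Members varied around this level. WT medians ran from 13.5 UMIs for IGKV4-53 and 14 for IGKV4-61 and IGKV4-79 to 25 for IGKV4-91, 25.5 for IGKV4-58 and 30 for IGKV4-86. All 17 were below the median of 42 for other families. Quartiles of neighbours in this order overlapped, and those of IGKV4-53 (9 and 16) and IGKV4-86 (24 and 41) did not. Chains of at least 1000 UMIs were found in 32 of 3459 candidate cells (0.925%), in 5 of 25 altered copies (20%, 6.83 to 40.7) and in 4 of 938 WT IGKV4 chains (0.426%). For other families it was 8 of 238 chains in 564Igi (3.36%, 1.46 to 6.52) and 21 of 6018 in WT (0.349%). The 5 altered copies came from few sets: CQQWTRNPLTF with the candidate heavy CDR3, and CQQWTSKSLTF or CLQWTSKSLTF with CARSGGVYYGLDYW. Cells of a set may be 1 clone. Of the 32 candidate cells, 30 had IGHM, 1 had IGHA and 1 had no heavy chain.

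**Figure D4:**
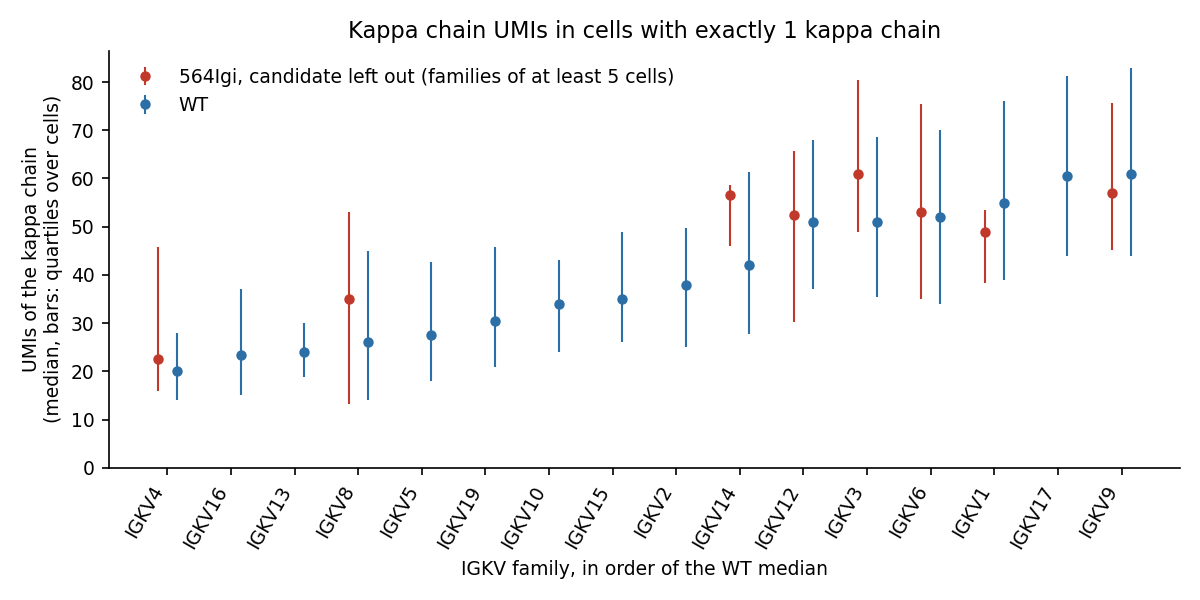
Median UMIs of the kappa chain in cells with exactly 1 kappa chain, by IGKV family (x axis), with bars for the quartiles over cells of 1 mouse. 564Igi points leave out the candidate and are drawn for families of at least 5 cells. IGKV4 lies lowest in WT at 20, and at 22.5 in 564Igi, while the other WT families run from 23.5 to 61.

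Ranked by UMIs, IGKV4 was more often the second kappa chain than the first in WT cells with 2 kappa chains. Of 761 cells with 2 kappa chains, IGKV4 was the chain with more UMIs in 46 (6.04%) and the one with fewer in 167 (21.9%). IGKV1 ran the other way, with 153 and 64, whereas IGKV16 (6 and 28), IGKV13 (15 and 37), IGKV19 (12 and 32), IGKV5 (32 and 53) and IGKV8 (50 and 75) ran as IGKV4 did. A second kappa chain stood beside 26.4% of WT IGKV4 chains, within the 21% of IGKV8 and the 37.6% of IGKV16 that bound the families with at least 50 cells of exactly 1 kappa chain. An IGKV4 chain was not the first of its cell in 21.2% of WT cases (18.6 to 23.9), against 12.7% for the other families pooled, a difference of 8.54 points (5.82 to 11.4). IGKV16 at 32.1% and IGKV13 at 24.2% lay above IGKV4, and IGKV19 was at 21.2% too. Whether the lower counts of IGKV4 chains account for this was not tested. Both chains were IGKV4 in 3 of the 761 cells.

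In 564Igi the candidate was the usual second chain, but seldom beside another IGKV4 chain. Cells with a kappa chain of another family also held the candidate in 151 of 235 cases, or 64.3% (57.8 to 70.4). Cells with another IGKV4 gene did in 1 of 29 (3.45%, 0.0873 to 17.8), a difference of -60.8 points (-67.8 to -45.1), and cells with another IGKV4-59 chain in 0 of 29 (exact interval to 11.9). Of the latter 29, 25 held altered copies of the candidate, so most do not stand for an unrelated kappa chain. The gap to other families depended on the deposited confidence flag in part: without requiring it, the counts were 189 of 238 (79.4%), 11 of 40 and 4 of 39. In WT, likewise, both chains were IGKV4 in 12 of 904 cells without the flag. How the flag treats contigs of similar sequence was not tested.

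Heavy chain partners of the candidate fell into 4 classes. Besides the 1660 cells with the candidate heavy chain, 672 of 3156 (21.3%) had a heavy CDR3 that ends as the candidate does, meaning at most 2 mismatches in its last 30 bases, 794 (25.2%) had another one, and 30 had a near copy. Median light chain UMIs were 19 with the candidate heavy chain, 16 with its end, 18 with other heavy chains and 22.5 with near copies, and 10 in the 303 cells without a heavy chain. Switched constant genes were found in 5 of 1637 cells with the candidate heavy chain (0.305%), 5 of 647 with its end (0.773%), 7 of 768 with other heavy chains (0.911%) and 6 of 30 with near copies (20%, 7.71 to 38.6). Near copies of the heavy chain and altered copies of the light chain each had a larger switched share when counted alone, but they overlapped. Switched cells were 4 of 15 altered copies paired with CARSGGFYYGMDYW or a near copy, and 2 of 8 paired with any other heavy CDR3. The 5 altered copies paired with unchanged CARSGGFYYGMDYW all had IGHM. Whether a changed light chain by itself goes with switching was not tested, and 5 cells are too few to show it. The other 564Igi IGKV4 genes had the candidate heavy chain in 1 of 26 cells (3.85%), its end in 9 (34.6%) and other heavy chains in 16, while other families had it in 26 of 205 (12.7%) and its end in 50 (24.4%). IGHV1 genes made up 62.1% of heavy chains with IGKV4 (58.5 to 65.7) and 59.6% with other families (58.1 to 61.2) in WT. IGHV9 made up 3.84% with IGKV4 (2.57 to 5.50) and 6.05% with other families (5.32 to 6.84), and IGHV10 0.960% with IGKV4 (0.387 to 1.97) and 2.35% with other families (1.90 to 2.87). The 100 WT IGKV4-59 cells with a heavy chain had 100 distinct heavy CDR3 sequences from 45 IGHV genes.

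The B cell tables held 747499 UMIs in 564Igi and 927382 in WT, with a median of 18 UMIs per kappa chain in 564Igi and 38 in WT. Barcodes called as cells in both the B and T cell tables, 373 in 564Igi and 345 in WT, were left out. The mice shared 38 barcodes called as B cells, of which 30 held the candidate in 564Igi and 1 held IGKV4-59 in WT. The filter required 2 UMIs: 30 of 3523 564Igi IGKV4 chains and 4 of 938 WT ones had exactly 2, and a further 6 in 564Igi and 0 in WT, left out, had 1.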

How the data were processed

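Of the 6 libraries described, the 4 V(D)J libraries were used, and the gene expression libraries were not used here. Each line of the deposited tables is a contig. Its UMI counts and read counts are whole numbers without normalization, per the file headers, and stand beside a cell call, a confidence flag, the CDR3 and the names of its gene segments. Contig lengths were deposited too and not used. Cell Ranger 3.0.2 and mm10 are named in the submitters' processing notes. The settings behind gene names, cell calls and the flag are not given in the sources used here.

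B cells were barcodes called as cells by the B cell library of a mouse and not by its T cell library. Contigs had to be flagged high-confidence, productive and of at least 2 UMIs. No doublet caller was run. Chains with the same V gene, J gene and CDR3 in a cell were counted once. Members and lists were chosen with earlier results of these data known. Genes with at least 20 WT cells, or 5 564Igi cells without the candidate, were named. Named repeated chains were the 5 most frequent per mouse (with ties) and those of at least 10 cells found in both, and the 3 genes nearest in J usage were named. Altered copies, the 1000 UMI limit, CDR3 starts, second chain counts and heavy chain classes were defined after the values were seen. A gene at 0 was set to 3 cells for folds.

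In 20 simulated profiles (67 genes), each real kappa chain stood for a cell, so WT had 6956 cells rather than 5994. The 2-fold rule found 95.0% of genes planted 4-fold higher and 43.3% of those planted 4-fold lower. Without change it called 6.97% of genes higher and 10.4% lower. Coordinates come from RefSeq on GRCm38.p6. Tables were made in Python 3.11.15 with NumPy 2.4.6 and pandas 2.3.3, intervals with SciPy 1.17.1, and plots with matplotlib 3.10.9.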

Additional observations from a re-analysis of the deposited data

Results flagged for a closer look

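The candidate light chain was also read outside B cells. Of 4573 564Igi barcodes that were T cells alone, 37 held it, or 0.809% (0.570 to 1.11), with a median of 2 UMIs, and 0 of 3263 such WT barcodes did, which allows up to 0.0919%. Other IGKV4 chains were found in 0 of the T cell barcodes of either mouse. Among 12010 564Igi barcodes called as cells in neither table, 517 held the candidate (4.30%), with a median of 2 UMIs, and 0 of 10780 such WT barcodes did. Other IGKV4 chains were found in 21 of these 564Igi and 17 of these WT barcodes. Both results come from barcodes that the comparisons did not use.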

How the results depend on the processing

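Family and IGKV4-59 usage, counts of genes, IGKJ5 shares, CDR3 length and candidate heavy chain partners were recomputed under 9 alternatives and under 1, candidate CDR3s under other gene names left out, added after seeing the data. Repeated chains could not be counted over distinct chains. UMI medians had 4 and switched shares of altered copies 3 alternatives, also added then, and the other values none. The candidate share was 97.1% when contigs without the flag were kept, 92.3% when only the kappa chain with most UMIs was counted, 95.4% after thinning each cell to 5 kappa UMIs (136 564Igi and 41 WT cells left out), and 2.03% of distinct chains. Several values rested on near copies of the candidate: without them in both mice the difference was -1.75 points for the family and 0.996 points for IGKV4-59, and repeated chains made up 25.7% of 564Igi cells. Cells with exactly 1 kappa chain, no lambda chain and 1 heavy chain leave out every cell that holds the candidate beside another kappa chain, so that 108 564Igi cells remained, with differences of 28.6 points for the family and 20.3 points for IGKV4-59, 7 IGKV genes at least 2-fold higher and 3 lower in 564Igi (main values 4 and 14), 81.7% of WT cells with repeated chains, and 56.0% of candidate cells with the candidate heavy chain, against 54.4% by primary chain. Counting each distinct chain once gave a family difference of -2.12 points, 1 gene higher and 0 lower among 15 genes, 71.1% of WT chains with 9 amino acids and 0.137% of distinct pairs with the candidate heavy chain. Of the recalculations of values that answer a comparison, these 19 moved beyond their interval (for counts of genes, by over 1.5 times) and 104 did not, and no difference whose interval left out 0 changed sign. The IGKJ5 difference stayed within its interval throughout, from 27.6 to 46.1 points. No paired analysis was possible because each group is 1 mouse. With 292 564Igi cells, a gene at 0 allows up to 1.03%, above the WT share of most members.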

Other observations

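Nonproductive rearrangements were read as well. Full-length nonproductive IGKV4 contigs were found in 1 564Igi B cell and in 16 WT B cells, with a median of 10.5 UMIs in WT. Full-length nonproductive contigs of all other IGKV families together numbered 4 in 564Igi and 17 in WT. Among productive WT kappa chains, IGKV4 made up 938 of 6956. The difference was not tested.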
